A study of Mus musculus with 18 samples.

Results

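The DBA/2J against C57BL/6J strain ratio was compared between whole kidney and whole liver, 2 of the 3 tissues hybridised in the study. The comparison used the 12 arrays whose titles name kidney replicate 1 to 6 and liver replicate 1 to 6, out of 18 arrays in all, the other 6 being brain. On each two-colour glass array, RNA of the inbred mouse strain DBA/2J and RNA of the inbred strain C57BL/6J were hybridised together. The kidney group consisted of 6 hybridisations of a pool of whole kidney RNA from 10 DBA/2J mice against a pool from 10 C57BL/6J mice, and the liver group of 6 hybridisations of pools of whole liver RNA from 9 mice per strain. No treatment, sex or age is given in the sources used here. Since the 6 hybridisations of a tissue used common pools, the p-values below reflect variation among arrays and leave out variation among mice. DBA/2J RNA is labelled as the Alexa Fluor 647 channel and C57BL/6J RNA as the 555 channel on every array, with no dye swap, so a positive log2 ratio likely means more RNA in DBA/2J. This direction rests on the order of the dyes in the labels. Every value below is either a strain ratio, log2 (DBA/2J over C57BL/6J), or a difference, the mean kidney ratio minus the mean liver ratio, and a difference of 1 is a 2-fold difference of ratios. A dye effect that is constant for a spot cancels in the difference, while it remains in the ratio of either tissue alone. Ratios were first normalised within each array by loess, a local regression that takes out the trend of the ratio with spot intensity. The intensities were themselves estimated from the whole numbers behind each deposited ratio, by restoring the factor that was lost when the fraction was reduced.

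DBA/2J and C57BL/6J are among the oldest inbred strains and differ at many loci that affect RNA levels. A variant in a regulatory region of a gene can act in every tissue that uses the gene, or in a single tissue where a tissue-specific element is used. The liver is made mostly of hepatocytes, which secrete plasma proteins and carry out much of drug, lipid and sugar metabolism. The kidney is made mostly of tubule epithelium, which reabsorbs the filtrate and shares several enzymes of oxidation, conjugation and gluconeogenesis with the liver.

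The labels of the tissues were checked against spot intensity, given as log2 over the array median and averaged over both strains. The 14 measured hepatocyte markers had a median intensity of 5.06 in liver and -0.12 in kidney, with albumin (Alb) at 7.72 and 0.71. The 13 proximal tubule markers had a median of 3.14 in kidney and 0.08 in liver, and the 10 distal nephron markers 1.03 and -0.41. The spot named Aqp2, a collecting duct water channel, went against the label, at 1.24 in kidney and 5.57 in liver. Ratios of single arrays correlated across features with the mean of the other 5 arrays of their tissue by 0.674 to 0.83 in kidney, where array 3 was lowest, and by 0.446 to 0.724 in liver, where arrays 2 (0.446) and 5 (0.527) stood apart. Spots that carry the same gene name often differed, and for 902 genes with 2 spots the differences of the pair correlated by 0.103 across genes. For the 58 of these whose spots had like intensity profiles the correlation was 0.544. The name of a gene therefore stands here for the spot that carries it.

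Of 20218 features (genes, or unnamed spots), 4278 (21.2%) had a kidney ratio that differed from the liver ratio at an adjusted p under 0.05 in limma. The ratio was higher in kidney for 2427 (12%) and lower for 1851 (9.16%). With a difference of at least 1.5-fold also required, 1143 features passed (5.65%), 753 higher in kidney (3.72%) and 390 lower (1.93%), and 208 of the 4278 passed 2-fold. The 6 kidney arrays did not overlap with the 6 liver arrays for 2043 features (10.1%), and 1891 of these were among the 4278. The median difference over all features was -0.01, and the median SE of a difference was 0.12. Leaving out any single array gave 3331 to 4289 features in place of the 4278, the fewest without kidney array 5. Without kidney array 3, liver array 2 or liver array 5, the 4278 became 4201, 4174 and 4289.

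Most differences were in features whose ratio passed the threshold against 0 in a single tissue. Not passing does not show that the ratio of the other tissue was 0. Ratios of 2 arrays correlated on average by 0.475 in liver and 0.649 in kidney. The strain ratio itself passed the threshold for 8478 features in kidney (41.9%) and 4616 in liver (22.8%), although both include any dye effect of the spot. Without liver array 3 the liver count was 2945. Among the 4278 features, 2361 passed in kidney and not in liver, 901 in liver and not in kidney, 500 in both with opposite signs, 268 in both with the same sign and 248 in neither. Of 2401 features past the threshold in both tissues, 1895 had the same sign, and for 1627 of these the difference did not pass the threshold. Over all features the kidney and liver ratios correlated by 0.344, a description of features that share spots and dyes. The larger absolute ratio lay in kidney for 710 of the 1143 features past 1.5-fold and in liver for 433. Of the 433, 70.4% were brighter in liver, as were 55.0% of all features, and of the 710, 28.5% were brighter in kidney, as were 45.0% of all features.

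**Figure D1:**
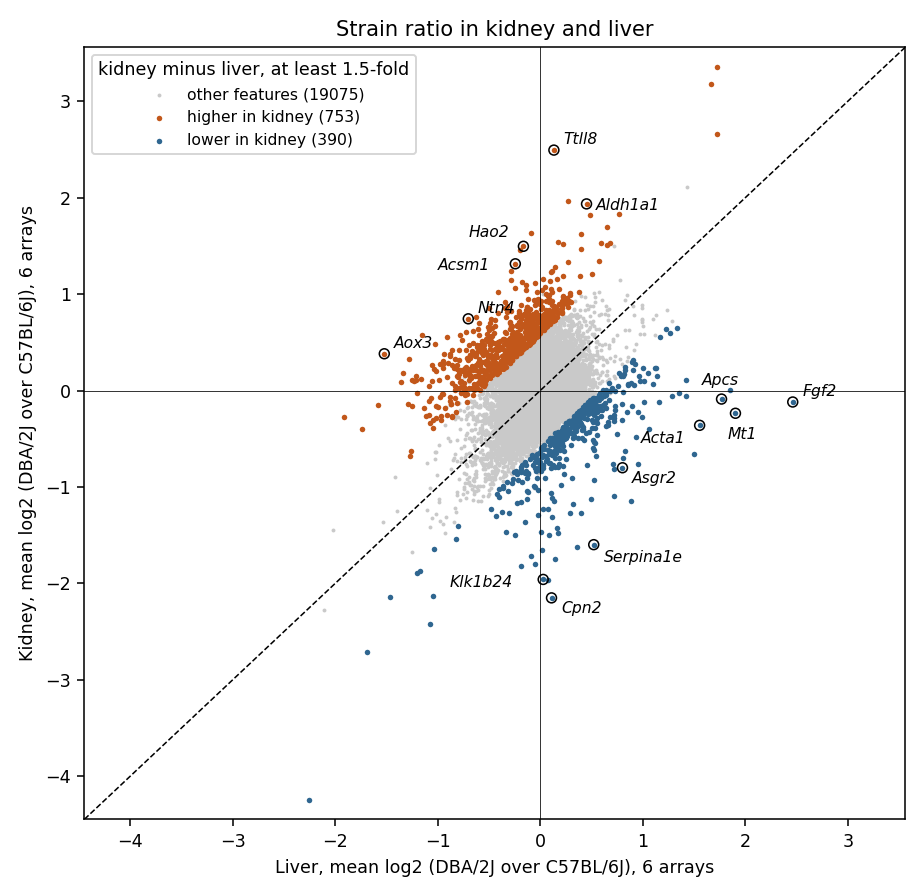
Mean log2 strain ratio (DBA/2J over C57BL/6J) of the 6 liver arrays (horizontal axis) and the 6 kidney arrays (vertical axis), 1 point per feature, with the 753 features higher and the 390 lower in kidney by at least 1.5-fold coloured and the dashed line marking equal ratios. The labelled genes lie mostly near one of the axes, as Fgf2, Apcs and Mt1 do along the liver axis and Ttll8 and Klk1b24 along the kidney axis, whereas Asgr2 and Aox3 lie in quadrants of opposite sign.

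The Serpina1 and Klk1b families each formed a run of 6 neighbouring genes with lower kidney ratios. The Serpina1 family encodes alpha-1 antitrypsin, the main plasma inhibitor of neutrophil elastase, made chiefly by hepatocytes. Mouse strains carry several near-identical copies of the gene on chromosome 12, and which copy a spot measured cannot be told apart among Serpina1a to Serpina1e. The Serpina1f spot was dim in liver, unlike those spots, so the description of the family may not hold for it. All 6 members measured, Serpina1a to Serpina1f, passed the threshold and 1.5-fold with lower ratios in kidney, and they follow each other with no other measured gene between them. Such a run, like the kallikrein run below, was picked out after its values were seen. Because the promoters of these genes bear on how alike the copies are, the 120 bases before the annotated start of each are shown from RefSeq, assembly GRCm38.p6, minus strand, with the letters GTTAAT in capitals. That motif is the core of the site recognised by HNF1, a hepatocyte and tubule transcription factor.
Serpina1a: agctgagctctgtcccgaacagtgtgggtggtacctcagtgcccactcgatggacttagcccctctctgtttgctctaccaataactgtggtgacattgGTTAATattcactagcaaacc
Serpina1b: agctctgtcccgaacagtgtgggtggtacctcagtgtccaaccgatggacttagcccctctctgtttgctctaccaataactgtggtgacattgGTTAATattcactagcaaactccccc
Serpina1c: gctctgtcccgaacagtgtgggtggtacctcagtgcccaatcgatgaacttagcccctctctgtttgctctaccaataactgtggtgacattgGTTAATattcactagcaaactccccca
Serpina1d: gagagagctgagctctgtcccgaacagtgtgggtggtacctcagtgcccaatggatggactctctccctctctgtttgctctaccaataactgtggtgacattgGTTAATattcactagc
Serpina1e: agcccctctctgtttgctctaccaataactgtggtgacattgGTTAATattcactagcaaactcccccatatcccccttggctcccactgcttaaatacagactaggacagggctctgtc
Serpina1f: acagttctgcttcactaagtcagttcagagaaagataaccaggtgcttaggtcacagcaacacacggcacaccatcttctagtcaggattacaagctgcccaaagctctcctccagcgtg
These lie at chr12:103863620-103863739, chr12:103738190-103738309, chr12:103904951-103905070, chr12:103773634-103773753, chr12:103956898-103957017 and chr12:103695530-103695649. GTTAAT, searched on both strands, was found in Serpina1a to Serpina1e and not in Serpina1f, while 3.00% of 32851 promoters hold it in the same window. Over 250 bases the promoters of Serpina1a to Serpina1d were 84.3% to 91.4% identical to each other, Serpina1e was 58.8% to 64.2% identical to them, where the annotated start differs, and Serpina1f 47.2% to 51.6% identical to the other 5. A match is a description of the letters and says nothing of binding.

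The kidney ratios of the Serpina1 spots were low on every array. For Serpina1e the lowest, median and highest ratios were -1.88, -1.68 and -1.27 in kidney and -0.20, 0.41 and 1.51 in liver. For Serpina1a they were -2.03, -1.84 and -1.10 in kidney and -0.15, -0.011 and 0.78 in liver. In both genes all kidney arrays lay far below 0 and the liver arrays scattered on both sides of it. The 2 tissues did not overlap in either, but genes were named for a large difference only if their arrays did not overlap. For such genes the lack of overlap was therefore fixed by the choice. The difference was -2.12 ± 0.22 (SE, n = 6 arrays per tissue, adjusted p = 2.1e-07) for Serpina1e, -1.98 ± 0.25 (adjusted p = 3.21e-06) for Serpina1b and -1.89 ± 0.16 (adjusted p = 8.2e-09) for Serpina1a. Serpina1c and Serpina1d differed by -1.56 ± 0.16 and -1.57 ± 0.18. Serpina1f, whose promoter is unlike the others, had a smaller difference of -0.96 ± 0.11 (adjusted p = 7.03e-07), with ratios of -1.39, -1.17 and -0.78 in kidney and -0.28, -0.24 and 0.0057 in liver. Kidney array 3 gave the highest kidney ratio for Serpina1a, Serpina1c and Serpina1d, and without it their differences were -2.02, -1.67 and -1.78. In liver, Serpina1a to Serpina1e lay at the 99.9th percentile of intensity or above and were saturated on at least 2 to 5 of the 6 arrays, where a channel gives only a bound, whereas Serpina1f lay at the 2.89th percentile with no array saturated. The part of saturation in the liver ratios was not tested. In whole tissue, fewer cells of a type and less RNA per cell cannot be told apart, here and in the results that follow.

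The glandular kallikreins formed the other run of 6, which Klk1b24 lies outside of. They are serine proteases that process peptide hormones and growth factors, encoded in a tandem cluster on chromosome 7 that holds many pseudogenes, shown by the ending -ps. Since the copies are closely related, which member a spot measured is uncertain. The 120 bases before the start of the 2 members without that ending are shown from the same assembly, plus strand, for comparison of the copies, and hold neither GTTAAT nor TATAAA, whose shares among all promoters are 3.00% and 6.34%.
Klk1b11: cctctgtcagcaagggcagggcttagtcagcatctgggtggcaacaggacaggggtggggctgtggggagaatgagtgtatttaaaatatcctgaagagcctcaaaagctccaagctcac
Klk1b24: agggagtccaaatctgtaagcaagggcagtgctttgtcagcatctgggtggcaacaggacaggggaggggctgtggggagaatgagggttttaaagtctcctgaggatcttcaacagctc
They lie at chr7:43995757-43995876 and chr7:44188116-44188235 and are 75.2% identical over 250 bases. Of the 15 members of the kallikrein list 4 were measured. In limma 3 of these were lower in kidney and 0 higher (75% against 21.2% of all features, with 0 higher at an unadjusted p under 0.05). Their median difference was -1.69, and since the copies are closely related, the 3 may not be separate measurements. For Klk1b24 the lowest, median and highest ratios were -2.05, -2.0 and -1.68 in kidney and -0.42, 0.17 and 0.35 in liver. For Klk1b11, the mean of 3 spots whose differences ran from -1.91 to -1.55, they were -1.91, -1.82 and -1.55 in kidney and -0.19, -0.054 and 0.19 in liver. Kidney arrays were uniformly low and liver arrays lay around 0, with no overlap in either gene, which the choice of genes required. The differences were -1.99 ± 0.13 (adjusted p = 1.68e-10) and -1.74 ± 0.095 (adjusted p = 1.1e-11), the latter the smallest p of the genes named here.

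The pseudogene spots of the cluster had the same pattern. Klk1b14-ps differed by -1.67 ± 0.11, Klk1b2-ps by -1.65 ± 0.15, Klk1b19-ps by -1.63 ± 0.11, Klk1b10-ps by -1.62 ± 0.16 and Klk1b18-ps by -1.48 ± 0.12, with adjusted p from 1.54e-10 to 7.03e-08. Kidney means lay between -1.82 and -1.47, and liver means between -0.19 and 0.18. All of them were bright in kidney, at percentiles of intensity from 90.4 to 97.6, and Klk1b24 lay at the 95th. Without loess, that is with each array only centred on its median and the trend of ratio with intensity left in, the 7 kallikrein differences ran from -1.11 to -0.82, each still past the threshold, and that of Serpina1f was -0.48.

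**Figure D2:**
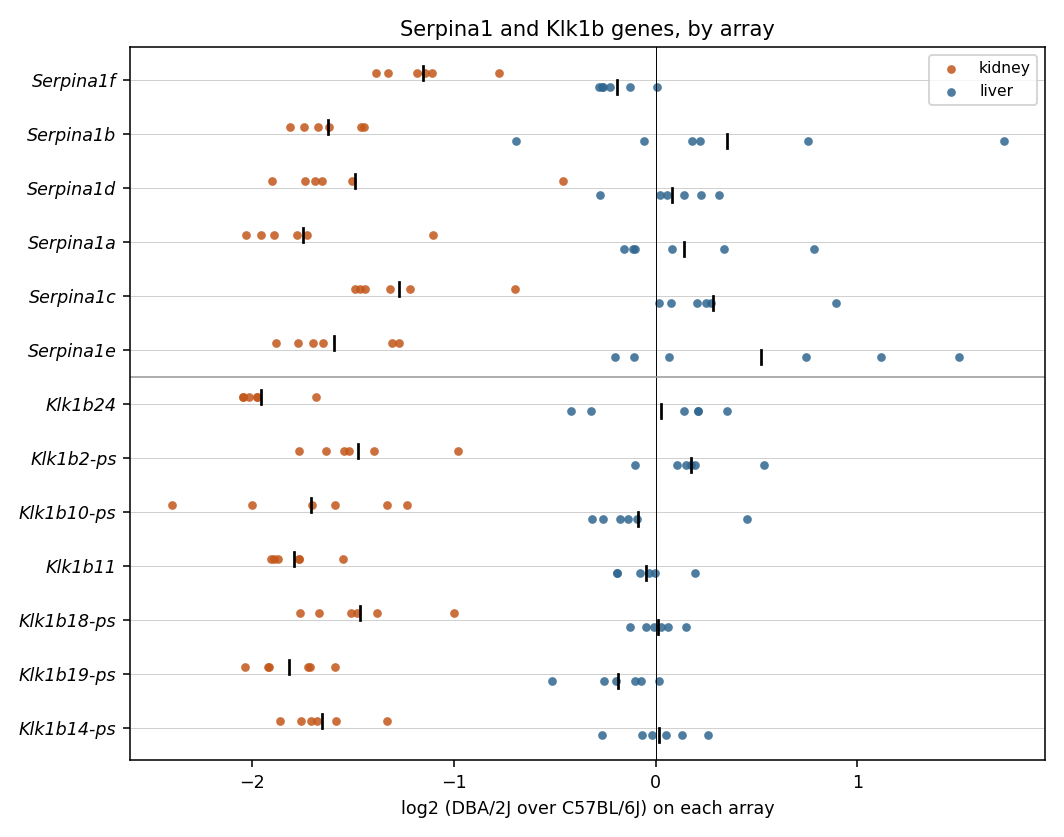
Log2 strain ratio on each array for the 6 Serpina1 spots (above the line) and the 7 Klk1b spots (below it), with 6 kidney and 6 liver arrays per gene as points and their means as black bars. Kidney points lie left of the liver points for each gene, with 1 kidney array of Serpina1d at -0.46 nearest to them.

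Other genes with much lower ratios in kidney had their departure from 0 in liver. Fgf2 encodes a heparin-binding growth factor. Its lowest, median and highest ratios were -0.53, 0.022 and 0.16 in kidney and 0.59, 2.69 and 3.48 in liver, so that kidney arrays lay around 0 and all liver arrays were higher, with a wide spread. The difference of -2.58 ± 0.30 (adjusted p = 1.12e-06), a 5.98-fold difference of ratios, was the largest of the named genes. Mt1 encodes metallothionein 1, a metal-binding protein induced by zinc and glucocorticoids. Its ratios were -0.73, -0.17 and -0.036 in kidney and 1.63, 1.83 and 2.38 in liver. No array of one tissue reached those of the other, which the choice of the genes with the largest differences required. The difference was -2.14 ± 0.14 (adjusted p = 1.86e-10), or -1.37 without loess. Apcs encodes serum amyloid P component, a pentraxin secreted by hepatocytes and an acute phase protein in mice. Its ratios were -0.20, -0.15 and 0.25 in kidney and 1.24, 1.82 and 2.16 in liver, with kidney near 0 apart from array 1 and liver high throughout. The difference was -1.86 ± 0.15 (adjusted p = 3.56e-09).

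Acta1, skeletal muscle actin, had ratios of -0.80, -0.30 and -0.16 in kidney and 0.34, 1.54 and 2.56 in liver. All kidney arrays were below 0 and all liver arrays above it, and the difference was -1.91 ± 0.24 (adjusted p = 4e-06). Of the 15 measured skeletal muscle markers, 5 were lower in kidney and 1 higher (40% against 21.2% of all features), including creatine kinase Ckm at -0.61 ± 0.15 and troponin Tnnt3 at -0.60 ± 0.11. Their median difference was -0.15, their median intensity was -0.22 in kidney and 0.21 in liver with a range of -1.46 to 1.09 and -1.01 to 2.02, and the part of muscle RNA in these ratios was not tested. Without loess Ckm was at -0.35 (adjusted p = 0.121) and Tnnt3 at -1.06. Asgr2, a subunit of the hepatocyte asialoglycoprotein receptor, had ratios of -1.17, -0.79 and -0.52 in kidney and 0.30, 0.80 and 1.20 in liver. Kidney lay below 0 and liver above it on every array, by a like amount, and the difference was -1.6 ± 0.14 (adjusted p = 1.56e-08).

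Cpn2, the regulatory subunit of plasma carboxypeptidase N, was low in kidney alone, with ratios of -2.97, -2.41 and -0.78 in kidney and -0.051, 0.12 and 0.29 in liver and a difference of -2.26 ± 0.24 (adjusted p = 3.52e-07). Its spot was among the dimmest of the kidney arrays, at the 0.0148 percentile of intensity, and near the middle in liver at the 61.6th percentile. The size of this difference depended on the normalisation. It was -0.77 without loess, -0.47 with a single loess curve per array, -1.36 with the restored intensity of each array, and -0.30 (adjusted p = 0.142) with the intensities left as reduced fractions.

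The genes with higher ratios in kidney were led by Ttll8, a tubulin glycine ligase of cilia. Its lowest, median and highest ratios were 1.77, 2.52 and 2.89 in kidney and -0.20, 0.093 and 0.66 in liver. All kidney arrays were far above all liver arrays, and the difference was 2.36 ± 0.16 (adjusted p = 2.32e-10), a 5.13-fold difference of ratios. A lack of overlap was required for choosing Ttll8 and the genes described after it, up to Ntn4. For these genes it is not a separate finding. Other named genes are given here in groups and not by rank. Hao2, a peroxisomal hydroxyacid oxidase abundant in kidney, had ratios of 0.63, 1.69 and 1.77 in kidney and -0.29, -0.17 and -0.016 in liver and a difference of 1.66 ± 0.15 (adjusted p = 2.82e-08). Acsm1, a mitochondrial medium-chain acyl-CoA synthetase, had ratios of 1.03, 1.31 and 1.75 in kidney and -0.56, -0.29 and 0.12 in liver and a difference of 1.56 ± 0.13 (adjusted p = 4.62e-09). In both genes liver arrays lay near or just below 0 and kidney arrays well above, without overlap.

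Aldh1a1, retinaldehyde dehydrogenase, had ratios of 1.35, 2.07 and 2.42 in kidney and 0.067, 0.45 and 0.81 in liver, positive on every array of both tissues and higher in kidney without overlap. The difference was 1.48 ± 0.17 (adjusted p = 6.77e-07). Its spot lay at the 99.3rd percentile of intensity in liver, with no array saturated. Myod1, a muscle lineage transcription factor, had ratios of 1.12, 1.39 and 1.89 in kidney and -0.43, -0.24 and 0.11 in liver and a difference of 1.66 ± 0.13 (adjusted p = 4.62e-09), from a spot that was dim in kidney, at the 15.3th percentile. Folh1, glutamate carboxypeptidase II of the proximal tubule brush border, had ratios of 0.11, 1.23 and 1.64 in kidney and -0.60, -0.29 and 0.087 in liver and a difference of 1.43 ± 0.19 (adjusted p = 4.6e-06). The tissues did not overlap in either gene, although kidney array 3 came close to the highest liver array for Folh1, whose difference without that array was 1.64. Folh1 was at 0.65 without loess and 0.93 with a single loess curve per array. Nop16, a nucleolar protein of ribosome assembly, differed by 1.53 ± 0.18, or 0.83 without loess, from a spot below the 3rd percentile of intensity in both tissues (0.46 and 2.24).

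Aox3 and Ntn4 were positive in kidney and negative in liver. Aox3, a hepatic aldehyde oxidase, had ratios of -0.073, 0.43 and 0.64 in kidney and -1.89, -1.58 and -1.09 in liver. Liver was low on every array and kidney positive on all but 1, and the difference was 1.90 ± 0.15 (adjusted p = 4.62e-09). Ntn4, a netrin of basement membranes, had ratios of 0.52, 0.71 and 0.97 in kidney and -0.98, -0.67 and -0.50 in liver and a difference of 1.45 ± 0.10 (adjusted p = 6.96e-10). Both strain ratios of Ntn4 had the same sign on all 6 arrays, and its spot was bright in both tissues, at the 97.4th and 98.1st percentile.

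The other 6 of the 15 highest differences belonged to gene models without an established function. 5031434O11Rik differed by 1.70 ± 0.47 (adjusted p = 0.011) with an SD of 1.76 over kidney arrays, and by 1.09 without kidney array 5. Its ratios on kidney arrays 5 and 6 were 5.00 and 3.20, and those on the other kidney arrays lay between 0.59 and 1.13. 4930529N20Rik and C730007P19Rik differed by 1.51 ± 0.22 and 1.45 ± 0.15, the latter by 0.75 without loess, from negative liver ratios. 1700024B18Rik, 4930465K10Rik and 1700096J18Rik differed by 1.72 ± 0.20, 1.61 ± 0.17 and 1.52 ± 0.17. These last 3 spots were extremely dim in liver, at percentiles of 0.163, 0.321 and 0.173, and their differences were -0.30, -0.38 and -0.54 without loess and -0.098, 0.0078 and 0.0095 with a single loess curve per array. With intensities left as reduced fractions they were 0.19, 0.14 and -0.15, none past the threshold.

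**Figure D3:**
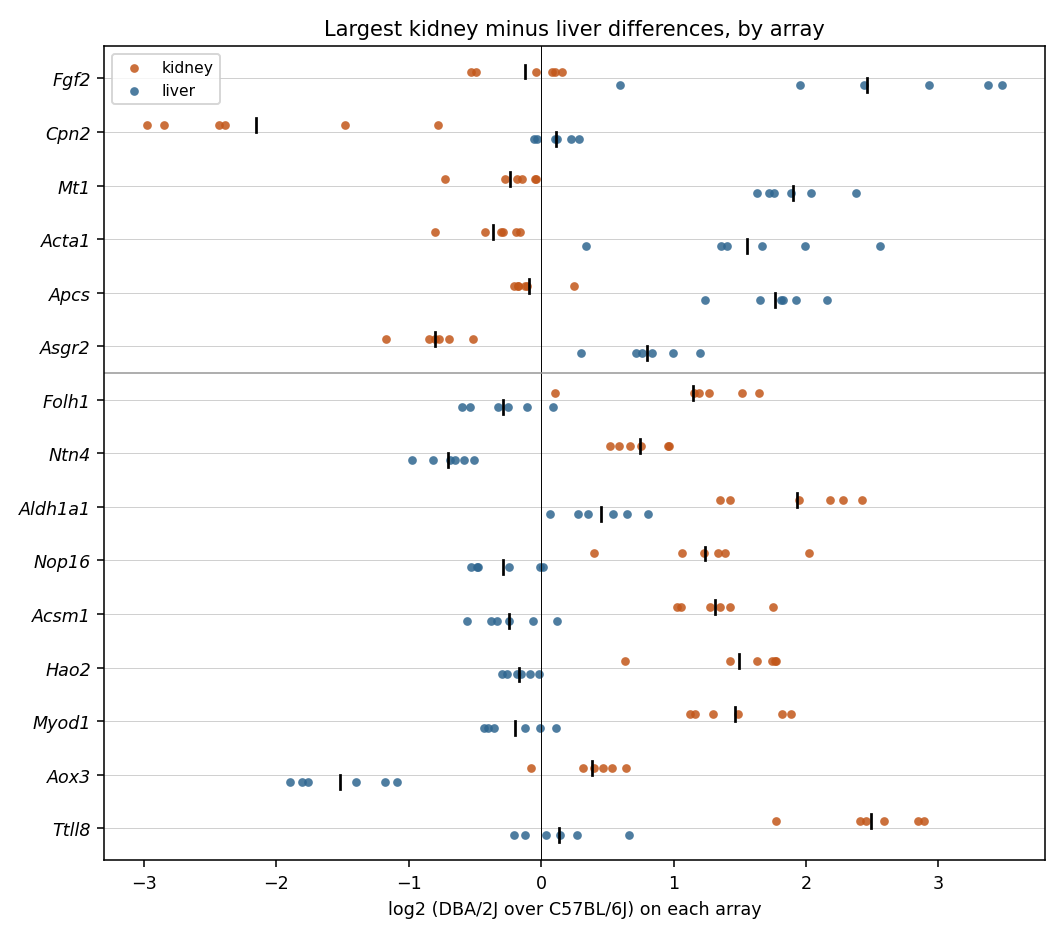
Log2 strain ratio on each of 6 kidney and 6 liver arrays (points, means as black bars) for named genes with the largest kidney minus liver differences. Genes lower in kidney are above the line and genes higher in kidney below it. The Serpina1 and Klk1b families and the gene models with names ending in Rik are left out. In the upper set Fgf2 and Apcs have high liver points and kidney points around 0, Mt1 and Acta1 have high liver points and kidney points below 0, and in the lower set Ttll8, Hao2, Acsm1 and Myod1 have high kidney points and liver points near 0.

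Among genes whose ratio passed the threshold in both tissues with opposite signs, Mt1, Acta1 and Asgr2 were lower in kidney and Aox3, 1700024B18Rik and 4930465K10Rik higher, the 6 largest such differences. The spots of 1700024B18Rik and 4930465K10Rik were extremely dim in liver, at percentiles of 0.163 and 0.321. Their differences depended on the normalisation, as given above. Adjusted p against 0 in kidney and in liver were 8.01e-06 and 0.000253 for Asgr2 and 0.00315 and 6.82e-06 for Aox3. For Mt1 the kidney ratio was just past the threshold, at 0.0438, with a mean of -0.24 ± 0.26 (SD, n = 6).

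Plasma proteins of the liver moved in both directions. Of 37 measured plasma carrier and acute phase proteins, 12 were lower in kidney and 5 higher (45.9% against 21.2% of all features), with a median difference of -0.09, or 0.05 with intensities left as reduced fractions. The largest were Serpina1e, Mt1, Serpina1b and Serpina1a, and with saturated features left out 7 of the list were lower. Of 45 genes of complement and coagulation, 12 were higher in kidney and 5 lower (37.8%), with a median of 0.11 that turned to -0.17 without loess. C8b, a subunit of the membrane attack complex, differed by 0.98 ± 0.15 (adjusted p = 5.74e-05) with ratios of -0.0047, 0.45 and 0.80 in kidney and -1.13, -0.41 and -0.27 in liver. C4b, complement component 4, differed by 0.97 ± 0.14, but by -0.17 without loess and 0.45 (adjusted p = 0.0677) with a single loess curve. C9, which completes the same complex as C8b, was lower in kidney, with a difference of -0.75 ± 0.15, with liver array 2 alone (-0.44) overlapping the kidney arrays.

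Lipid carriers were mostly lower in kidney where they passed the threshold. Of 29 apolipoproteins and lipid transport genes, 8 were lower and 1 higher (31.0%), 5 and 0 with intensities left as reduced fractions, and the median difference was -0.02. Apoa4, of chylomicrons and high-density lipoprotein, had ratios of -1.58, -0.76 and -0.37 in kidney and 0.018, 0.25 and 0.41 in liver and differed by -1.09 ± 0.14 (adjusted p = 5.2e-06), with all kidney arrays below all liver arrays. Apoc2, the activator of lipoprotein lipase, differed by -0.92 ± 0.18, positive in liver and negative in kidney. Apoc1, an inhibitor of lipoprotein uptake, differed by -1.27 ± 0.36 (adjusted p = 0.0142), which with a robust prior became 0.0519. The fatty acid transporter Cd36 differed by -0.88 ± 0.16, and by 0.054 without loess. Of 20 major urinary proteins and other sex-dependent liver genes 8 were measured, 3 of them saturated on at least 1 liver array. Of the 8, 1 was higher and 2 lower (37.5% against 21.2% of all features). Their median was -0.15, which turned to 0.05 without loess, 0.18 with reduced fractions and 0.029 with the brightest spot of each symbol. Mup5 differed by 1.23 ± 0.22 (-0.12 without loess, 0.32 with a single curve), the coenzyme A hydrolase Nudt7 by -0.89 ± 0.13, and Selenbp2 by -0.28 ± 0.091 (adjusted p = 0.0301, 0.46 without loess). The call of Selenbp2 ended without kidney array 4 or 5 or liver array 1, 4 or 6.

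Enzymes of drug and steroid metabolism included both directions. Of 40 cytochrome P450 genes, 11 were higher in kidney and 5 lower (40% against 21.2% of all features), with a median of 0.09. Cyp2e1, which oxidises ethanol and acetone, had ratios of 0.80, 0.93 and 1.16 in kidney and -0.39, 0.0024 and 0.31 in liver, with liver around 0 and kidney above it throughout. Its difference was 0.98 ± 0.11 (adjusted p = 3.99e-07), or 1.93 without loess. Cyp2a4, a steroid hydroxylase nearly identical to Cyp2a5, had ratios of 0.58, 2.02 and 2.35 in kidney and 0.011, 0.54 and 0.71 in liver and differed by 1.33 ± 0.21, and Cyp4a12a, an arachidonic acid hydroxylase under androgen control in kidney, differed by 1.06 ± 0.22 (1.68 without loess). In both, kidney array 3 (0.58 and 0.38) was the only kidney array that did not lie above every liver array, and without it the differences were 1.58 and 1.35. Cyp3a13 was low in liver and near 0 in kidney, with a difference of 1.18 ± 0.16, or 0.45 (adjusted p = 0.0612) without loess.

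Of 44 conjugation enzymes and carboxylesterases, 10 were higher in kidney and 12 lower (50% against 21.2% of all features), with a median of 0.03. With a single loess curve per array 7 were lower. Gsta2 and Gsta1, glutathione transferases of the alpha class that conjugate electrophiles, were low in kidney alone. Gsta2 had ratios of -1.74, -1.39 and -1.03 in kidney and -0.28, -0.14 and -0.04 in liver and differed by -1.21 ± 0.11 (adjusted p = 1.96e-08), and Gsta1 by -0.94 ± 0.11, or -0.49 without loess. Since the 2 transferases are closely related, their spots may measure the same RNA. Fmo2, a flavin monooxygenase, was high in liver alone, with ratios of -0.47, -0.091 and 0.13 in kidney and 0.83, 1.06 and 1.65 in liver and a difference of -1.27 ± 0.13 (adjusted p = 2.02e-07), -0.75 without loess, and its 2 spots gave -1.29 and -1.25. Ugt2b37, a glucuronosyltransferase, was positive in kidney and mostly negative in liver, with a difference of 1.16 ± 0.15, 1.93 without loess.

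Lipid synthesis and oxidation showed single enzymes with opposite directions. Of 36 genes of cholesterol and fatty acid synthesis, 10 were lower in kidney and 6 higher (44.4% against 21.2% of all features). Their median was -0.13. Msmo1, a sterol methyl oxidase of the cholesterol pathway, had ratios of -0.26, -0.077 and 0.15 in kidney and 0.77, 1.33 and 2.01 in liver and differed by -1.35 ± 0.15 (adjusted p = 4.03e-07). Fdft1, squalene synthase of the same pathway, had ratios of 0.41, 0.55 and 0.83 in kidney and -0.85, -0.61 and -0.18 in liver and differed by 1.18 ± 0.12 (adjusted p = 9.12e-08). The tissues did not overlap in either, and the liver ratio was positive for Msmo1 and negative for Fdft1. Gpam, the first enzyme of triglyceride synthesis, differed by -0.93 ± 0.14 (-0.42 without loess), and Scd2, a stearoyl-CoA desaturase, by -0.84 ± 0.12. Of 47 genes of fatty acid oxidation and PPAR-alpha targets, 12 were higher and 7 lower (40.4%), with a median of 0.09, and 3 and 4 were lower without liver array 1 or 5. Beside Hao2 and Acsm1, the carnitine carrier Slc25a20 differed by 0.94 ± 0.20 (0.48 without loess, adjusted p = 0.0874). Acsm3, a synthetase related to Acsm1, was lower in kidney, with a difference of -0.87 ± 0.12, with ratios of -1.56, -1.23 and -1.10 in kidney and -0.60, -0.48 and -0.0499 in liver, or -0.22 (adjusted p = 0.232) without loess.

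In sugar metabolism the genes past the threshold were higher in kidney with 1 exception. Of 32 genes of glycolysis, gluconeogenesis and glycogen, 11 were higher in kidney and 1 lower (37.5%), with a median of 0.15 that was 0.48 without loess. G6pc, glucose-6-phosphatase, the last step of glucose release, had ratios of 0.083, 0.19 and 0.40 in kidney and -1.37, -0.66 and -0.47 in liver, so that every kidney array was above 0 and every liver array below it. Its difference was 0.95 ± 0.15 (adjusted p = 5.45e-05), or 1.78 without loess. Pfkl, liver phosphofructokinase of glycolysis, had ratios of 0.0019, 0.19 and 0.66 in kidney and -1.02, -0.67 and -0.52 in liver and differed by 0.97 ± 0.13 (adjusted p = 6.45e-06). Ppp1r3c, which targets a phosphatase to glycogen, differed by 0.82 ± 0.12 (0.33, adjusted p = 0.0695, without loess and 0.46 with a single curve), and Pygl, liver glycogen phosphorylase, by 0.61 ± 0.096 (0.93 without loess and 0.93 with reduced fractions). Of 59 genes of amino acid catabolism and the urea cycle, 7 were higher and 6 lower (22%, near the 21.2% of all features), with a median of 0.08, and 13 were higher with reduced fractions. Glutamine synthetase Glul differed by 0.67 ± 0.15 (1.3 without loess), and arginase Arg1, the last step of the urea cycle, by -0.60 ± 0.10 (-0.98 without loess). The peroxisomal aminotransferase Agxt differed by -0.72 ± 0.16 and kynurenine monooxygenase Kmo by -0.61 ± 0.12, at -0.32 and 0.068 without loess, neither then past the threshold.

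Genes of the nephron included both directions. Of 51 proximal tubule transporters and enzymes, 12 were higher in kidney and 4 lower (31.4% against 21.2% of all features). The median was 0.10, and with a single loess curve 7 were higher and 4 lower. Slc34a1, the main phosphate transporter of the brush border, was the tightest, with ratios of -1.24, -1.11 and -1.07 in kidney and -0.23, -0.11 and -0.026 in liver. Each kidney array was below each liver array, and the difference was -1.0 ± 0.12 (adjusted p = 1.07e-06), or -0.26 (adjusted p = 0.116) without loess. Spp2, a secreted phosphoprotein, differed by -0.91 ± 0.12 (-0.47 without loess), and the nuclease Dnase1 by 0.79 ± 0.12 (1.5 without loess). Abcc2, an export pump of conjugates, differed by 0.81 ± 0.29 (adjusted p = 0.0474), with overlap between the tissues, and that call ended without kidney array 1, 3 or 5, without liver array 1, 3, 4, 5 or 6, and under most normalisations, such as a single loess curve (0.79, adjusted p = 0.0853). Liver array 2 (0.99) lay far from the other liver arrays there, and without it the difference was 1.08 (adjusted p = 0.00381).

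Of 40 distal tubule and collecting duct genes, 5 were higher in kidney and 6 lower (27.5% against 21.2% of all features). Their median of -0.12 turned to 0.16 without loess and was 0.00 with reduced fractions, where 3 were higher and 2 lower. Ptger3, a prostaglandin E receptor of the thick ascending limb, had ratios of -0.41, 0.23 and 0.40 in kidney and -2.10, -0.94 and -0.49 in liver and differed by 1.28 ± 0.22 (adjusted p = 0.000193), 0.69 without loess, from low and scattered liver ratios. Hsd11b2, which protects the mineralocorticoid receptor from glucocorticoids, had ratios of 0.53, 0.65 and 0.69 in kidney and -0.45, -0.20 and -0.019 in liver, tight and positive in kidney, and differed by 0.83 ± 0.10 (adjusted p = 3.01e-06). Umod, uromodulin, a protein of normal urine, had ratios of -0.93, -0.77 and -0.71 in kidney and -0.33, 0.16 and 0.23 in liver. It differed by -0.83 ± 0.11, but by 0.019 without loess. The water channel Aqp4 differed by 0.72 ± 0.15, with 1 kidney array inside the liver range.

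The ribosomal and respiratory chain lists were lower in kidney, but turned with the normalisation. Of 65 cytosolic ribosomal proteins, 22 were lower in kidney and 1 higher (35.4% against 21.2% of all features), with a median of -0.26. Without loess, however, 34 were higher and 0 lower with a median of 0.34. Of 72 oxidative phosphorylation genes, 21 were lower and 5 higher (36.1%), with a median of -0.15, and without loess 3 were lower and 47 higher with a median of 0.42. With intensities left as reduced fractions the lower counts were 12 and 11. Rplp1 of the ribosomal stalk differed by -1.01 ± 0.14, Rpl9 by -0.88 ± 0.13, Rps15 by -0.76 ± 0.15 and Rpl38 by -0.69 ± 0.17, with liver ratios above 0 and kidney ratios at or below it, and without loess they were at 0.076, -0.013, 0.13 and 0.14. The complex I subunit Ndufa1 differed by -0.70 ± 0.14, the ATP synthase subunits Atp5j and Atp5e by -0.68 ± 0.13 and -0.66 ± 0.12, and the cytochrome oxidase subunit Cox6c by -0.65 ± 0.15, at 0.26, 0.024, 0.14 and 0.37 without loess. Both lists are bright, with median intensities of 3.76 and 2.88 in kidney and 2.86 and 2.12 in liver.

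Of 37 proteasome genes, 9 were higher in kidney and 1 lower (27.0% against 21.2% of all features), with a median of 0.08. With a single loess curve 5 were higher. The regulatory subunits Psmd13, Psmd8 and Psmc2 differed by 0.58 ± 0.12, 0.57 ± 0.15 and 0.48 ± 0.13, with kidney array 3 lowest for Psmd8 and Psmc2. The interferon-induced catalytic subunit Psmb9 was the 1 that was lower, at -0.62 ± 0.13. Of 38 chaperones and heat shock genes, 10 were higher and 2 lower (31.6%), with a median of 0.12, led by Dnajb9 and P4hb of the endoplasmic reticulum at 0.68 ± 0.15 and 0.66 ± 0.14 and the chaperonin subunit Cct8 at 0.61 ± 0.12, while the co-chaperone Bag3 was lower, at -0.72 ± 0.15. Without loess Cct8 and Bag3 were at 0.10 and -0.24 and did not pass. Of 30 genes of MHC and antigen presentation, 9 were higher and 3 lower (40%), 5 and 4 with reduced fractions, and the median was 0.14. The class I heavy chain H2-D1 had ratios of 0.19, 0.35 and 0.45 in kidney and -0.43, -0.26 and -0.16 in liver and differed by 0.60 ± 0.11 (adjusted p = 0.000422), and H2-M3 differed by 0.55 ± 0.11, with both at 1.41 and 1.15 without loess. Their partner chain B2m differed by -0.63 ± 0.14, and by 0.051 without loess. The 2 strains carry different H2 haplotypes, and the class I genes are near-identical, so that the heavy chain spots are uncertain.

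Of 21 circadian clock genes and outputs, 7 were higher in kidney and 0 lower (33.3% against 21.2% of all features). Their median was 0.12. In limma 0 were lower at an unadjusted p under 0.05, and without loess 4 were lower and 8 higher. Nr1d1, the repressor REV-ERB alpha, had ratios of 0.38, 0.74 and 1.11 in kidney and -0.061, 0.12 and 0.39 in liver and differed by 0.59 ± 0.11 (adjusted p = 0.000496), 0.34 (adjusted p = 0.0658) without loess. Lpin1, a phosphatidate phosphatase with a daily rhythm, was negative on every array of both tissues and lower in liver, with a difference of 0.66 ± 0.15, and Tspan4 and the kinase Wee1 differed by 0.55 ± 0.15 and 0.45 ± 0.12. The time of day of collection is not given in the sources used here. Of 34 iron and heme genes, 7 were lower and 3 higher (29.4%), with a median of -0.06 that turned to 0.06 without loess and 0.02 with reduced fractions. Hamp, hepcidin, the hepatocyte hormone of iron balance, had ratios of -0.0064, 0.18 and 0.38 in kidney and 0.088, 1.09 and 1.69 in liver and differed by -0.87 ± 0.17 (adjusted p = 0.000845), or -0.63 (adjusted p = 0.0595) with reduced fractions. Heph, a ferroxidase of iron export, differed by -0.79 ± 0.11, negative on every kidney array and at or above 0 on every liver array. Biliverdin reductase Blvra differed by 0.51 ± 0.11 (0.22 without loess). Ftl2-ps, a ferritin light chain pseudogene among many near-identical copies, differed by -0.67 ± 0.22 (adjusted p = 0.0336), a call that ended without kidney array 1, 3, 4 or 6 or liver array 2 or 4. Without liver array 2 it differed by -0.46, and by -0.12 without loess.

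**Figure D4:**
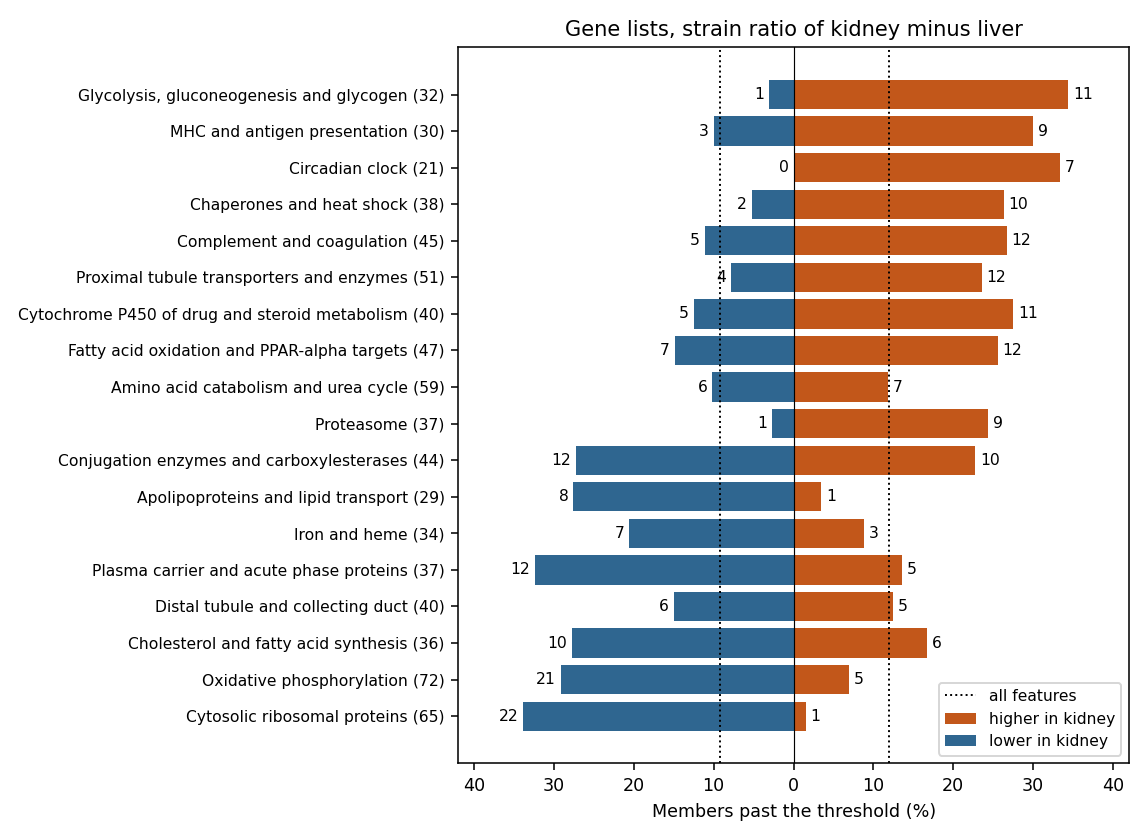
Share of measured members (%) of 18 gene lists with at least 20 measured genes whose strain ratio was higher in kidney (right) or lower (left) at an adjusted p under 0.05, with counts at the bars, measured members in brackets and dotted lines at the 12% and 9.16% of all features. Sugar metabolism (11 higher, 1 lower) and ribosomal proteins (1 higher, 22 lower, but 34 higher and 0 lower without loess) mark the ends.

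**Figure D5:**
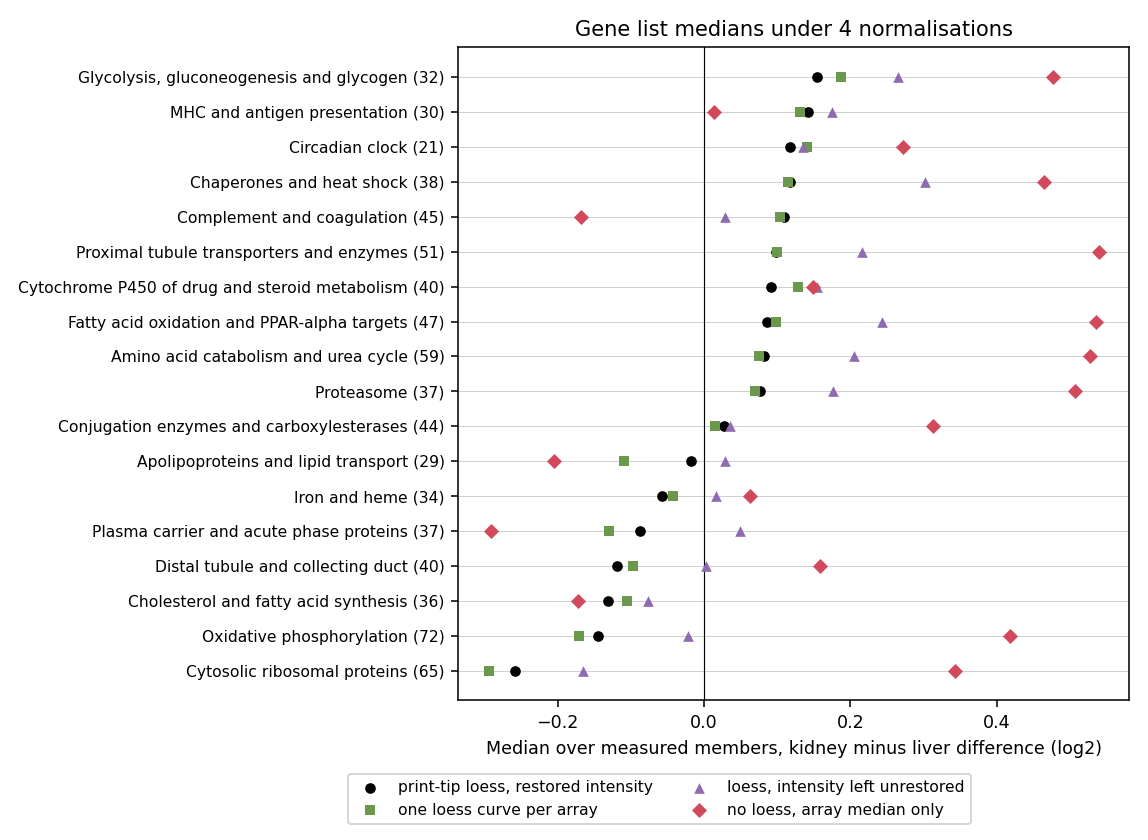
Median kidney minus liver difference (log2) over the measured members of the same lists under 4 normalisations, each a marker shape. Ribosomal proteins move from -0.26 to 0.34 and oxidative phosphorylation from -0.15 to 0.42 when the loess step is left out, while sugar metabolism stays above 0 in all 4.

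A list of 16 genes with known alleles in either or both strains was followed. Of these, 14 were measured and 5 passed the threshold for the difference (35.7% against 21.2% of all features), 2 higher and 3 lower. The median over the 14 measured genes was -0.06 and turned to 0.23 without loess. C57BL/6J lacks functional H2-Ea and Nnt, an MHC class II chain and the mitochondrial transhydrogenase, and DBA/2J carries extra copies of Glo1, glyoxalase 1. Glo1 had ratios of 0.14, 0.90 and 1.10 in kidney and 0.79, 0.89 and 1.18 in liver. H2-Ea had ratios of 0.12, 0.90 and 1.03 in kidney and 0.14, 0.60 and 1.10 in liver, and Nnt of -0.56, 0.69 and 0.89 in kidney and 0.0799, 0.64 and 0.86 in liver. All 3 were positive in both tissues on average and overlapped widely, with differences of -0.14 ± 0.13, 0.16 ± 0.15 and -0.089 ± 0.22 (adjusted p = 0.459, 0.492 and 0.803). Without loess Glo1 was at 0.41 (adjusted p = 0.0164).

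Hc, complement component 5, carries a null allele in DBA/2J, and the liver makes most of it. Its ratios were -0.35, -0.26 and -0.14 in kidney and -1.44, -1.31 and -0.17 in liver, negative on every array and lower in liver except on 1 array. The difference was 0.83 ± 0.16 (adjusted p = 0.000525), or 0.21 (adjusted p = 0.354) without loess. Myo5a, whose dilute allele in DBA/2J lightens the coat, had ratios of -0.68, -0.51 and -0.45 in kidney and -0.27, -0.097 and 0.20 in liver, negative in kidney and around 0 in liver, and differed by -0.44 ± 0.098 (adjusted p = 0.00221), or -0.17 without loess. Klrd1, a natural killer cell receptor absent in DBA/2J, differed by -0.43 ± 0.11 (-0.90 without loess), and the inhibitory Fc receptor Fcgr2b by 0.65 ± 0.16. Klrd1 had an adjusted p of 0.0698 with a single loess curve. Gabra2, a GABA-A receptor subunit with a low-expression allele in C57BL/6J, differed by -0.33 ± 0.11 (adjusted p = 0.0289), -0.65 without loess, and its call ended without kidney array 4 or 5 or liver array 1, 3 or 6. A lower level in C57BL/6J would give a positive ratio. The 2 Gabra2 spots were at -0.12 and -0.50 in kidney, the opposite sign, and at 0.21 and -0.17 in liver. The differences of the other 6, Gpnmb, Alad, Ahr, Tyrp1, Cdh23 and Il2ra, were -0.14, -0.0603, 0.031, 0.18, 0.32 and -0.052 and did not pass, with adjusted p from 0.206 to 0.864. For Alad the strain ratio itself was near 0, with means of 0.032 in kidney and 0.092 in liver (adjusted p against 0 of 0.725 and 0.419 in limma).

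Markers of other cell types were followed in the same contrast, 1 list at a time, beside the 21.2% of all features that passed (12% higher and 9.16% lower). These lists are short, and 1 gene moves a share by several percent. Of 11 macrophage markers 2 were lower in kidney and 1 higher (27.3%), of 15 lymphocyte markers 3 and 1 (26.7%), of 11 endothelial markers 3 and 1 (36.4%), of 10 adrenal markers 3 and 1 (40%), and of 6 adipocyte markers 1 and 1 (33.3%). Of 7 erythroid markers 2 were lower and 0 higher in limma (28.6%, with 1 higher at an unadjusted p under 0.05). Of 5 cholangiocyte markers 0 were lower and 2 higher in limma (40%, with 1 lower at an unadjusted p under 0.05), and of 14 stellate cell and fibroblast markers 0 and 1 (7.14%, with 1 lower at an unadjusted p under 0.05). Of 6 podocyte markers 0 passed in limma, with 1 higher and 0 lower at an unadjusted p under 0.05. The lipopolysaccharide receptor Cd14 had the largest difference of the macrophage markers, -1.29 ± 0.15 (adjusted p = 1.05e-06), with ratios of -1.75, -1.17 and -0.58 in kidney and -0.14, 0.20 and 0.32 in liver, or -0.71 without loess. Of 11 pancreas acinar markers 3 were higher in kidney and 0 lower in limma (27.3%, with 0 lower at an unadjusted p under 0.05), the largest being the trypsinogen Prss2 at 1.26 ± 0.16, with negative liver ratios. The part of these cell types in the other differences was not tested.

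By chromosome, the share of measured genes past the threshold ran from 18.9% on the X chromosome to 25.7% on chromosome 19, and the share past 1.5-fold from 4.40% on X to 7.24% on chromosome 12, which holds the Serpina1 genes. Another run of at least 3 neighbouring measured genes past 1.5-fold in the same direction was found beside the Serpina1 and Klk1b runs, Prxl2b, Hes5 and Pank4 on chromosome 4. Prxl2b, a prostamide synthase, was higher in kidney by 1.04 ± 0.27 (adjusted p = 0.00696 in limma), with overlap between the tissues. Hes5, a transcriptional repressor of the Notch pathway, was higher by 0.84 ± 0.14 and Pank4, a pantothenate kinase family member, by 0.68 ± 0.11. This run was also picked out after its values were seen. Of all features, 3.72% were higher in kidney past 1.5-fold, and how often a run of 3 arises by chance was not tested.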

How the data were processed

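Labelled RNA of DBA/2J and C57BL/6J was hybridised to 18 glass arrays, 6 per tissue. The deposited values are log2 ratios of the 2 channels. Quantification with Spot and print-tip lowess in limma are named per the labels, without versions or a background correction. The 391770 values of 21765 spots were without exception the log2 of a fraction of whole numbers (tolerance 1e-12), with kidney array medians from -0.85 to 0.16 and liver medians from -1.65 to -0.77, so they were treated as not yet normalised. 1275 of 23040 spots at 0 on every array were left out. The number of arrays limits the precision.

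Whole numbers were recovered by continued fractions up to 65535, the common factor was estimated over the arrays of a tissue (SD 0.4 on the log2 scale), and signals of at least 65000 were called saturated. Tested on data simulated with the same SD of 0.4, the factor was exact for only 69.7% of values in kidney and 69.7% in liver. Ratios were normalised by print-tip loess (span 0.3, 4 iterations, 48 blocks of 480 spots) and spots of one symbol averaged. Symbols came from the platform annotation, updated by Entrez identifier through a RefSeq table of GRCm38.p6, which matched 15964 spots; 16642 spots had 1 symbol, 134 several and 4989 none, giving 15095 named genes among 20218 features, 1047 of them with more than 1 spot.

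The kidney minus liver contrast was fitted over all 18 arrays with limma 3.58.1 (lmFit and eBayes, R 4.3.3), two-sided, adjusted by Benjamini-Hochberg across the 20218 features, and the ratios of single tissues against 0 on their 6 arrays. Tested on simulated data, the fit missed more of the smaller than of the larger changes, and the share of false calls was above the nominal one. Named genes were the 15 largest differences each way without overlap of arrays, the 6 largest of opposite sign, up to 4 called members per list and all known alleles. The members, lists and rules were chosen with earlier results of these data known. Of 1087 list genes 868 were measured. Alternatives covered the loess, the intensity, scaling, dim and saturated features, spots, arrays, weights and the prior; the restored intensity of each array was added after seeing the data.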

Additional observations from a re-analysis of the deposited data

Results flagged for a closer look

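Single arrays stood apart in 32 of 238 sets of 6 ratios (119 named genes in each of 2 tissues), where chance would give about 1 in 20, or 11.9. Of these, 15 were on kidney array 3, whose ratio was lowest in 12 and highest in the others. Its ratios were -1.24 for Cd36, 0.58 for Cyp2a4, 0.38 for Cyp4a12a, 0.11 for Folh1, -0.31 for Glul, 0.12 for H2-Ea, 0.63 for Hao2, 0.53 for Hsd11b2, -0.73 for Mt1, -0.56 for Nnt, -0.37 for Psmc2, -0.29 for Psmd8, -1.10 for Serpina1a, -0.70 for Serpina1c and -0.46 for Serpina1d. The other 5 kidney arrays lay, for example, between 1.91 and 2.26 for Cyp4a12a and between -1.91 and -1.51 for Serpina1d.

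Other kidney ratios that stood apart were -0.80 for Agxt (array 5), 0.25 for Apcs (array 1), -1.68 for Klk1b24 (array 5), 0.66 for Pfkl (array 6) and 0.15 for Psmb9 (array 5). In liver they were 0.99 for Abcc2 (array 2), -0.0499 for Acsm3 (array 5), -0.57 for Apoc1 (array 5), 0.69 for Atp5e (array 1), -0.36 for C4b (array 3), -0.44 for C9 (array 2), -1.33 for Cdh23 (array 5), -1.37 for G6pc (array 2), 0.45 for Klk1b10-ps (array 2), 1.18 for Mup5 (array 1), 0.90 for Serpina1c (array 1) and 0.43 for Slc25a20 (array 4). The cause was not tested.

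The strain ratio had opposite signs in kidney and liver, with both tissues and the difference past the threshold in limma, for 500 of all features and for 36 of the 119 named genes, 18 lower and 18 higher in kidney. For several of the 36 the difference turned sign without loess, as given below. The negative kidney minus liver differences were -2.14 for Mt1, -1.91 for Acta1, -1.6 for Asgr2, -1.09 for Apoa4, -1.01 for Rplp1, -0.92 for Apoc2, -0.91 for Spp2, -0.88 for Rpl9, -0.79 for Heph, -0.75 for C9, -0.72 for Bag3, -0.72 for Agxt, -0.69 for Rpl38, -0.68 for Atp5j, -0.66 for Atp5e, -0.63 for B2m, -0.60 for Tnnt3 and -0.60 for Arg1. The positive ones were 1.90 for Aox3, 1.72 for 1700024B18Rik, 1.61 for 4930465K10Rik, 1.53 for Nop16, 1.52 for 1700096J18Rik, 1.51 for 4930529N20Rik, 1.45 for Ntn4, 1.43 for Folh1, 1.26 for Prss2, 1.18 for Fdft1, 1.16 for Ugt2b37, 0.98 for C8b, 0.97 for Pfkl, 0.95 for G6pc, 0.94 for Slc25a20, 0.82 for Ppp1r3c, 0.67 for Glul and 0.60 for H2-D1.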

How the results depend on the processing

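Without the loess step 9288 features passed for the difference (4418 higher and 4870 lower in kidney), 4574 of them past 1.5-fold (2259 higher, 2315 lower), and 13113 for the kidney ratio, and the cause was not tested. Of the 1143 features past 1.5-fold, 771 kept their sign and call without loess, 116 turned sign and 12 of these passed, against 944 with intensities left as reduced fractions, 1072 with a single loess curve per array and 1120 to 1137 without one array. Named genes that turned sign without loess were Atp5e (0.14), Atp5j (0.024), B2m (0.051), C4b (-0.17), Cd36 (0.054), Cox6c (0.37), Glo1 (0.41), Kmo (0.068), Mup5 (-0.12), Ndufa1 (0.26), Rpl38 (0.14), Rplp1 (0.076), Rps15 (0.13), Selenbp2 (0.46) and Umod (0.019), beside 1700024B18Rik (-0.30), 4930465K10Rik (-0.38) and 1700096J18Rik (-0.54). 1700024B18Rik also turned with a single curve (-0.098) and 1700096J18Rik with reduced fractions (-0.15). With the dimmer 40% of features left out, 4730 passed for the kidney ratio, fewer features being tested. Leaving out one array gave 3331 to 4289 features for the difference (1971 to 2426 higher, 1352 to 1863 lower), 1007 to 1218 past 1.5-fold (658 to 827 higher, 339 to 414 lower), 7041 to 8206 for the kidney ratio and 2945 to 4619 for the liver ratio. With replicate number as a block, 3968 features passed and 1144 past 1.5-fold, and 1139 of the 1143 kept their call. Deviations of same-numbered kidney and liver arrays correlated by -0.12 to 0.16, and 3 of 6 correlated best with their own number, so the numbers were not taken as a pairing. Dim spots and saturated liver spots limit what the arrays can show for the genes named with those values.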
